A study of Mus musculus with 4 samples.

Results

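Olfactory receptor genes are the 1125 genes of the analysed annotation whose symbol begins with Olfr and a number, or with the newer Or form, and that lie on an assembled mouse chromosome. All 1125 carried the Olfr form and 0 the Or form. They were held in 1140 of the 50727 rows, so nearly every gene had a single transcript model: 1111 genes had 1 row, 13 had 2 and 1 had 3. Of the 1125, 1107 had a coding part, which is 5.27% of the 20992 symbols with a coding part on the assembled chromosomes. The other 18 had none. Members were chosen by name and chromosome only, so no measured value entered the choice.

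The series profiled RNA polymerase I by CUT&Tag, in which an antibody guides a transposase that inserts sequencing adapters near the bound protein, in the mouse embryonic stem cell line C64. The labels give 2 untreated control libraries and 2 libraries from cells kept in 500 nM auxin for 6 h, with the same Pol I antibody in both groups. Auxin serves in animal cells to remove proteins that carry an auxin-inducible degron, and no degron-tagged protein is named in the labels. Polymerase signal over these genes was not analysed here, the depth of the libraries is unknown, and no difference between the groups is given. What follows describes positions and exon structure in the mm10 annotation of the series, which are fixed coordinates without replicate error.

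Olfactory receptors are G protein-coupled receptors of the olfactory epithelium that bind odorants. Each mature sensory neuron expresses a single receptor allele, and the receptor signals through the G protein subunit encoded by Gnal, adenylyl cyclase and a cyclic nucleotide-gated channel. The genes form one of the largest mammalian families, arose by repeated local duplication, and are divided into fish-like class I and tetrapod-enriched class II receptors. Most are silent outside the olfactory epithelium, and a few are known from other tissues.

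The sequence before an annotated start shows how the models of these genes were drawn. RefSeq windows of 300 bases (build GRCm38.p6), running from 250 bases before to 50 bases after a gene's start, matched 943 of the 1125 genes by symbol, with 947 windows in all. All 947 windows were anchored on the start of a row of the deposited annotation. The 3 windows printed first belong to well-known receptors whose row begins with the coding part, Olfr17 (a receptor used in gene targeting of olfactory axons), Olfr73 (a eugenol receptor) and Olfr15. The capitals mark the first 3 bases after the annotated start.
Olfr17 (chr7:107097217-107097516, plus strand): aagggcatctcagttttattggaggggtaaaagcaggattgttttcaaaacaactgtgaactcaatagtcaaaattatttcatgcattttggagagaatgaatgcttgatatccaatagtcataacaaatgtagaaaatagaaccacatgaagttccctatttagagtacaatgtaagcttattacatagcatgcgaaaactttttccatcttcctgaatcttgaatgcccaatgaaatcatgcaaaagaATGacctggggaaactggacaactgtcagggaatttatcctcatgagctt
Olfr73 (chr2:88035088-88035387, minus strand): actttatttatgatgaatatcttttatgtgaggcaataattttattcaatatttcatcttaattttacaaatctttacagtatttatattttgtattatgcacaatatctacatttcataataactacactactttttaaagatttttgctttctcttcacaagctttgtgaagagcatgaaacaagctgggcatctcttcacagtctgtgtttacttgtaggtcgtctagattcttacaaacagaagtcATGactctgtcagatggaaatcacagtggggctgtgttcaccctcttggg
Olfr15 (chr16:3838725-3839024, plus strand): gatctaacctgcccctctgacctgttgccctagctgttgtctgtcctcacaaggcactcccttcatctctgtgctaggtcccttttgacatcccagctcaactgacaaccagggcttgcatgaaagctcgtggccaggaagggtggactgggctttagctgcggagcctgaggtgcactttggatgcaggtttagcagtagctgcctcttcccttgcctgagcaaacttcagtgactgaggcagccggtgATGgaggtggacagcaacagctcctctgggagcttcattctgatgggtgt
In each of the 3 windows the annotated start is the start codon. The same held for all 684 member windows whose row has no 5' untranslated region (5' UTR), where 684 of 684 read ATG at that place. Such rows begin at the coding part, so this count only checks the placing of the windows. Among the 263 windows of rows with an annotated 5' UTR, 1 read ATG at the annotated start. In the 31904 windows of all other genes the count was 1230, or 3.86%. For those 684 windows, the stretch before the annotated start is therefore the stretch before the start codon, and it need not contain the site where transcription starts.

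The next set shows members with a sequence motif named for olfactory genes. EBF proteins (Olf1) bind a palindrome with the core CCCNNGGG, and LHX2 and related homeodomain proteins bind sites such as TAATGA and TAATTA, both textbook elements of olfactory receptor promoters. Both strands were searched, N stands for any base, and each window printed here runs over the 250 bases before the start. Capitals mark the palindrome core in Olfr287, Olfr288 and Olfr1213, the core with its outer letters (a T before and an A after it) in Olfr698, and TAATGA read on the other strand in Olfr16.
Olfr287 (chr15:98221057-98221306, minus strand): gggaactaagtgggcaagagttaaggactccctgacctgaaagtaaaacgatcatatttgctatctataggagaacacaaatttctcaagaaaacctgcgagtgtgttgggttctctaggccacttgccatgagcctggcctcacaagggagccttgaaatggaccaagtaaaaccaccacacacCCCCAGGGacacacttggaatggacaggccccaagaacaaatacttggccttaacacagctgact
Olfr288 (chr15:98195543-98195792, minus strand): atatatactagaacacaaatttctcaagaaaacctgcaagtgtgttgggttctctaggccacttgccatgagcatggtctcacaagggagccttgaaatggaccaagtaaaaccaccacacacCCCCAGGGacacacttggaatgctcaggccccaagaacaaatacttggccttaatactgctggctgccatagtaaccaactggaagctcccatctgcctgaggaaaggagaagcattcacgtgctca
Olfr1213 (chr2:88980268-88980517, minus strand): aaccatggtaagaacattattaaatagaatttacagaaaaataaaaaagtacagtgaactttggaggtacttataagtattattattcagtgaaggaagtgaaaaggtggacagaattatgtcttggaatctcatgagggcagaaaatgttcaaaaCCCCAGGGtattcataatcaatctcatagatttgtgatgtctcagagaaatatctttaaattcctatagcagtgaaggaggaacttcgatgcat
Olfr698 (chr7:106753387-106753636, minus strand): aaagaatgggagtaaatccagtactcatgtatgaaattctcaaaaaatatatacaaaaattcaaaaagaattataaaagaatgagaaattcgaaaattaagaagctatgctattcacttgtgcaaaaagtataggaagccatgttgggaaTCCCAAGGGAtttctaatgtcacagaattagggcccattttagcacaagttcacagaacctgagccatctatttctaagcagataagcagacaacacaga
Olfr16 (chr1:172956518-172956767, plus strand): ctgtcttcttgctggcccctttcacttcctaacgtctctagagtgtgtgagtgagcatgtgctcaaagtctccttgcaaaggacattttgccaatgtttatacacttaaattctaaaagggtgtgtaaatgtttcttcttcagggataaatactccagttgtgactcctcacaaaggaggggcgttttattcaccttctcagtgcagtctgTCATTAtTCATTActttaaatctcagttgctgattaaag
Olfr287 and Olfr288 are neighbours on chromosome 15, each with 1 non-coding exon before 2 coding exons. Their windows aligned over 188 positions without a gap, and 177 of these (94.15%) were identical, the core included. The start of the core lay 65 bases before the annotated start in Olfr287 and 127 bases before it in Olfr288. In Olfr1213 the core began 94 bases before the start. Its window aligned with either of the other windows over 13 positions only, 11 of them identical. Olfr698 had the longer palindrome 100 bases before the start. Olfr16, a receptor for lyral that is also known from sperm, held TAATGA at 39 and 32 bases before its start, and its annotated 5' UTR was 29 bases long. The windows of the well-known receptors Olfr15, Olfr17, Olfr73, Olfr160 and Olfr558 held neither the palindrome core nor TAATGA or TAATTA.

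Matches were counted over all windows of the same length, as a description of letters and not of binding. The palindrome core stood in 29 of the 947 member windows (3.06%), against 4491 of all 32851 windows (13.7%). Within the members the share was 16 of 97 windows (16.5%) at starts followed by a non-coding exon, 4 of 166 (2.41%) at starts with a 5' UTR but no separate non-coding exon, and 9 of 684 (1.32%) at starts that are the start codon. The core with outer letters, which always contains the core, was found in 5 member windows (0.528%), those of Olfr96, Olfr98, Olfr99, Olfr108 and Olfr698, and in 297 of all windows (0.904%). TAATGA stood in 273 member windows (28.8%) and 9.78% of all windows, and TAATTA, which shares its first 4 letters with it, in 176 (18.6%) and 5.29%. The sequence TATAAA was present in 389 member windows (41.1%) and 13.6% of all windows. Split by the same 3 kinds of start, TAATGA stood in 39.2%, 31.3% and 26.75% of the member windows, TAATTA in 20.6%, 16.9% and 18.7%, and TATAAA in 27.8%, 37.95% and 43.7%.

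The windows also differed in base composition. The median share of G and C was 35.0% in the member windows and 53.3% in the windows of other genes. It was 39.0% in the member windows that precede a non-coding exon, 35.7% in those with a 5' UTR alone and 34.7% in those at a start codon. The part of base composition in the motif shares was not tested. The profile along the window was low throughout for the members: in windows at a start codon it stayed between 31.8% and 34.7% over the first 200 bases and reached 46.4% in the last 10 bases, inside the coding part, while other genes stood at 50.6% in the first 10 bases and 57.6% in the last 10.

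**Figure D1:**
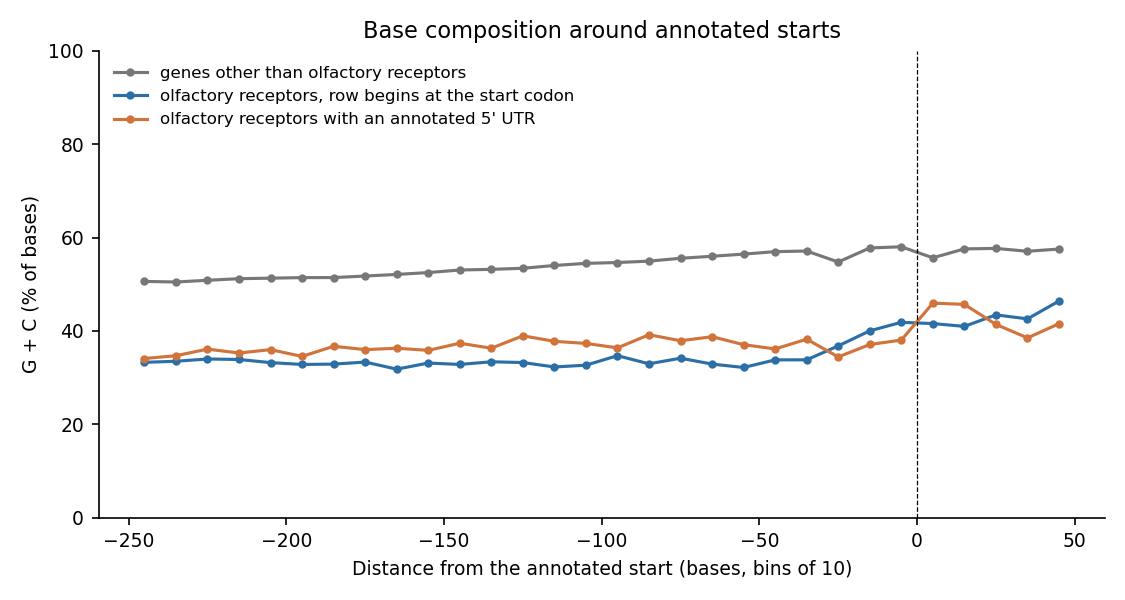
Share of G and C (y axis, percent of bases) in bins of 10 bases by distance from the annotated start (x axis, bases), averaged over 31904 windows of other genes, 684 of receptors whose row begins at the start codon and 263 of receptors with an annotated 5' UTR. Both receptor curves lie below the curve of other genes in every bin.

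The receptors were clustered. Joining genes separated by less than 1 Mb gave 40 clusters of at least 2 genes, which held 1116 of the 1125 genes (99.2%), and 9 genes stood alone. These were Olfr466 on chromosome 13, Olfr49 on 14, Olfr19 on 16, Olfr1402 and Olfr266 on 3, Olfr267 on 4, Olfr370 and Olfr371 on 8 and Olfr1325 on X. The median cluster held 12.5 genes, 22 clusters held at least 10, and 13 held 2 to 5. All clusters together covered 34.8 Mb at 32.1 receptor genes per Mb, and the receptor models themselves, introns included, filled 4.88% of that length.

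The 3 largest clusters contained 450 genes, or 40.0% of the family. The first, on chromosome 2 (85330967 to 90401674, 5.07 Mb), held 226 genes from Olfr987 to Olfr1274, 20.1% of all receptors. The second, on chromosome 7 (102476773 to 105369317, 2.89 Mb), held 125 genes from Olfr543 to Olfr692. The third, on chromosome 9 (37711348 to 40188094, 2.48 Mb), held 99 genes from Olfr160 to Olfr986. Their densities were close to each other, at 44.6, 43.2 and 40.0 genes per Mb. Among clusters of at least 10 genes the density ran from 13.4 per Mb on chromosome 1 (Olfr16 to Olfr220) to 48.3 per Mb on chromosome 4 (Olfr62 to Olfr1328).

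By chromosome, 2, 7 and 9 carried 292, 239 and 136 genes, together 59.3% of the family. Chromosome 7 had the most clusters, 7, and chromosome 11 had 85 genes in 6 clusters. Chromosome 19 had all its 62 genes in a single cluster, and chromosome 10 had 58 of its 68 in one. Chromosomes 5, 12, 18 and Y had no member in the table analysed. Set against the number of symbols with a coding part on the same chromosome, receptors with a coding part came to 16.3% on chromosome 2, 12.1% on 7 and 10.95% on 9, against 0.206% on chromosome 3.

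**Figure D2:**
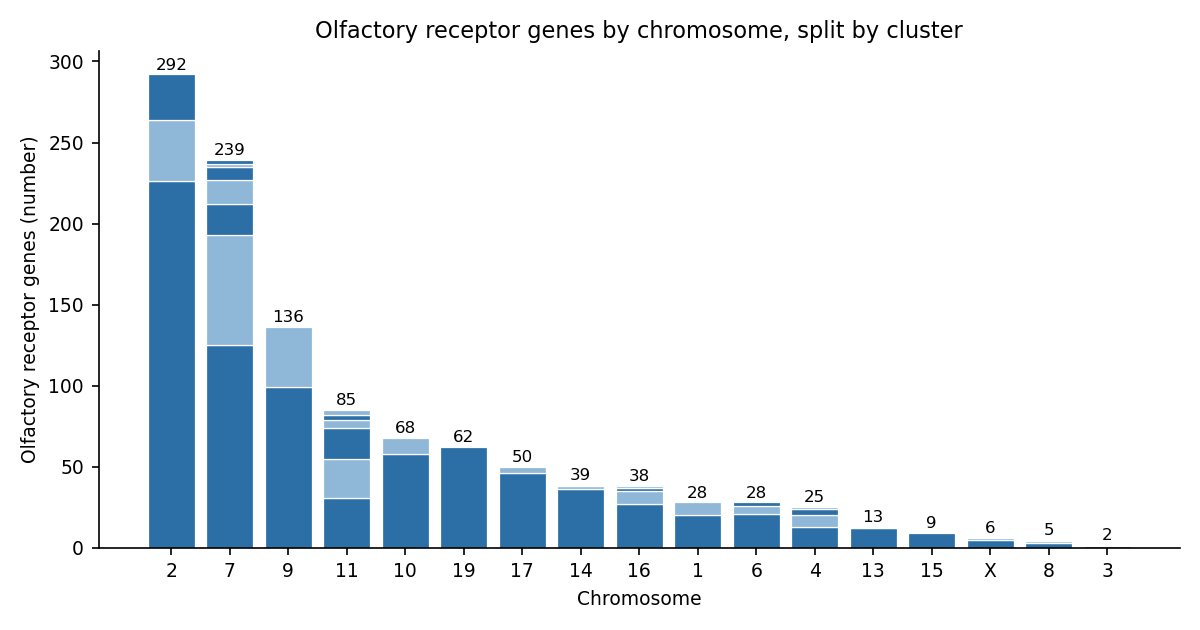
Number of olfactory receptor genes (y axis) on each of the 17 chromosomes with a member (x axis), each bar split into its clusters and single genes in alternating shades. Chromosome 2 reaches 292 genes, 226 of them in 1 cluster.

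The 1076 pairs of neighbours inside clusters lay a median of 19112 bases apart, with the middle of the distribution between 12010 and 30545 bases. Only 22 pairs were closer than 5 kb and 32 were more than 100 kb apart. The widest interval within a cluster was 963731 bases, on chromosome 14 between Olfr750 and Olfr221. A single pair shared bases: Olfr560 (945 bases, 1 exon) lies on the same strand wholly inside the span of Olfr78, a receptor also known from the carotid body and blood vessels, whose 18751 bases on chromosome 7 (102740721 to 102759471) include 3 non-coding upstream exons.

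Strand ran in blocks. Of the 1076 neighbouring pairs, 749 (69.6%) were on the same strand, 157 were convergent and 170 divergent. For the other coding genes, paired in the same way, the same-strand share was 51.2% of 19546 pairs, at a median distance of 13783 bases. The related vomeronasal receptors gave 54.4% of 215 pairs for Vmn1r and 79.4% of 97 pairs for Vmn2r, and the trace amine-associated receptors (Taar) 11 of 14 pairs. Over the whole family the strands were nearly balanced, with 547 genes on the plus and 578 on the minus strand.

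In the clusters the 1116 genes fell into 367 runs of 1 strand, of which 154 were a single gene. Runs of at least 5 genes numbered 73 and held 578 genes (51.8%), and 14 runs had 10 or more. The longest run, 36 genes on the minus strand from Olfr1213 to Olfr1254, spanned 816 kb of the large chromosome 2 cluster (88972954 to 89789350). Of its 31 genes with a known family, 15 belonged to MOR family 233, and 5 families occurred in it. The next were 21 genes from Olfr893 to Olfr914 on chromosome 9, and 18 genes from Olfr56 to Olfr1380 on chromosome 11, both on the plus strand.

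The large clusters differed in this respect. The chromosome 9 cluster had 66 genes on the plus and 33 on the minus strand, and 76.5% of its neighbours shared a strand. The chromosome 2 cluster had 149 on the minus and 77 on the plus strand, with 75.6% of neighbours on the same strand. The chromosome 7 cluster was balanced at 63 and 62, and its share was 60.5%, against 70.8% of the 952 pairs in all other clusters. Across the 22 clusters of at least 10 genes the share ran from 48.15% on chromosome 2 (Olfr338 to Olfr368) to 95.0% on chromosome 6 (Olfr459 to Olfr47).

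**Figure D3:**
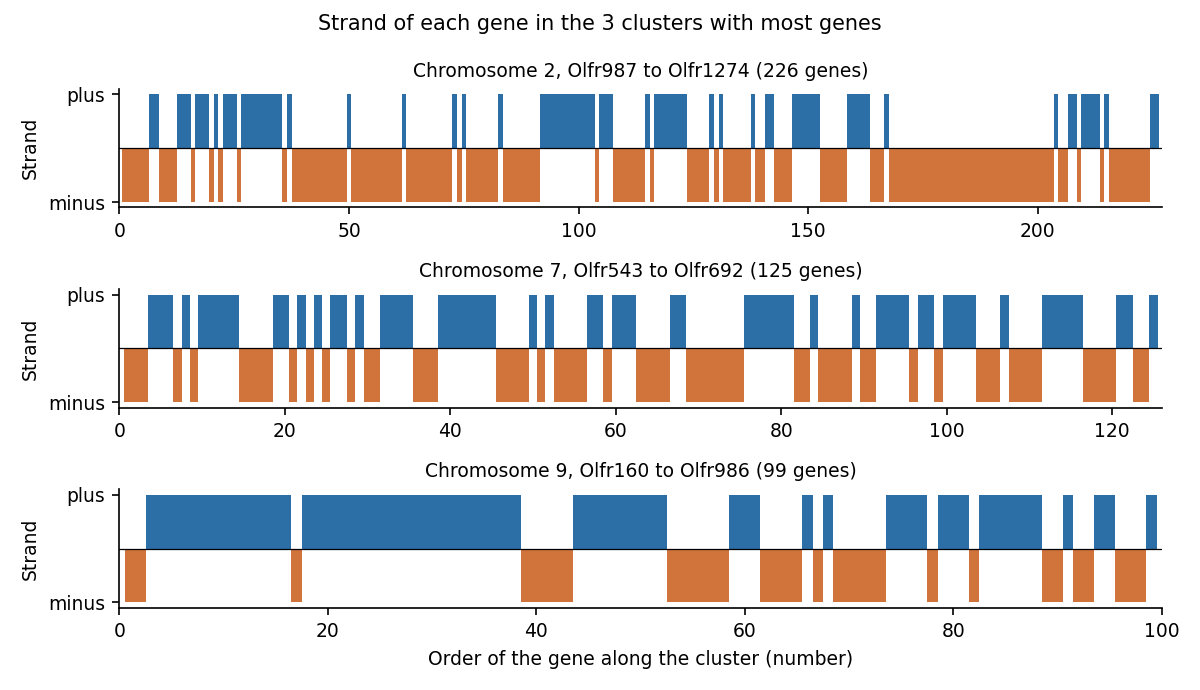
Strand of every gene (bars up for plus, down for minus) in genome order (x axis, position in the cluster counted in genes) for the 3 clusters with most genes. The run of 36 minus genes stands in the right part of the chromosome 2 panel, and the chromosome 7 panel alternates more often.

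Receptor families, as the MOR numbers among the reference synonyms give them, followed the same layout. A single family number was found for 1088 genes, in 221 families. Of the 164 families with at least 2 genes, 140 (85.4%) lay in 1 cluster only. Family 171 had all 37 genes in 1 cluster, and family 204 all 32, whereas family 256, with 50 genes, was spread over 6 places on 4 chromosomes. Among 1012 neighbouring pairs with known families, 633 (62.55%) belonged to the same family. Of these, 486 (76.8%) shared a strand, against 218 of 379 pairs (57.5%) from different families. The distance was alike, at a median of 18784 and 19501 bases.

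The class I receptors, the families numbered 1 to 42, numbered 123, and 121 of them (98.4%) stood in the chromosome 7 cluster from Olfr543 to Olfr692. That cluster contained 0 class II genes and 4 without a single family number. The other class I genes, Olfr503 (family 34) and Olfr504 (family 40), lay next to each other in the following chromosome 7 cluster, at 108544527 to 108545498 and 108564837 to 108565793. The remaining 965 genes with a family number were class II. Olfr78 and Olfr558, both of family 18 and both known outside the nose as receptors for small acids, belonged to class I.

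Coding length was narrow. Over the 1107 coding genes the median was 942 bases, the quartiles were 936 and 954, and the SD was 22.6 bases. The commonest length, 939 bases, was shared by 144 genes (13.0%), followed by 945 bases (105 genes) and 936 bases (102 genes), and the whole family had 48 different lengths. Every one of the 1121 coding rows had a length that is a multiple of 3. Between 900 and 999 bases lay 1082 genes (97.7%), against 6.14% of the 19885 other coding genes, whose median was 1275 bases with quartiles of 783 and 2064. The median of Vmn1r genes was 924 bases, of Taar genes 1038 and of Vmn2r genes, which carry a large extracellular domain, 2562.

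A few receptors stood outside that range. The longest coding parts were those of Olfr225 (1260 bases, chromosome 11), Olfr94 (1161 bases, chromosome 17) and Olfr735 (1065 bases, chromosome 14), and in each of the 3 the row holds the coding part only. The shortest were Olfr1285 (795 bases, chromosome 2), Olfr936 (804 bases, chromosome 9) and Olfr367-ps (843 bases, chromosome 2). In all, 21 genes exceeded 1000 bases and 4 were under 900.

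Class I receptors were annotated as slightly longer than class II. The median was 954 bases (quartiles 945 and 960, 123 genes) for class I and 939 bases (933 and 951, 949 genes) for class II. The 2 distributions overlapped, with ranges of 924 to 1041 and 795 to 1260 bases. Relatives were closest in length: neighbours of the same family had equal coding lengths in 201 of 612 pairs (32.8%) and a median difference of 6 bases, and neighbours of different families in 23 of 372 pairs (6.18%), with a median difference of 12 bases.

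**Figure D4:**
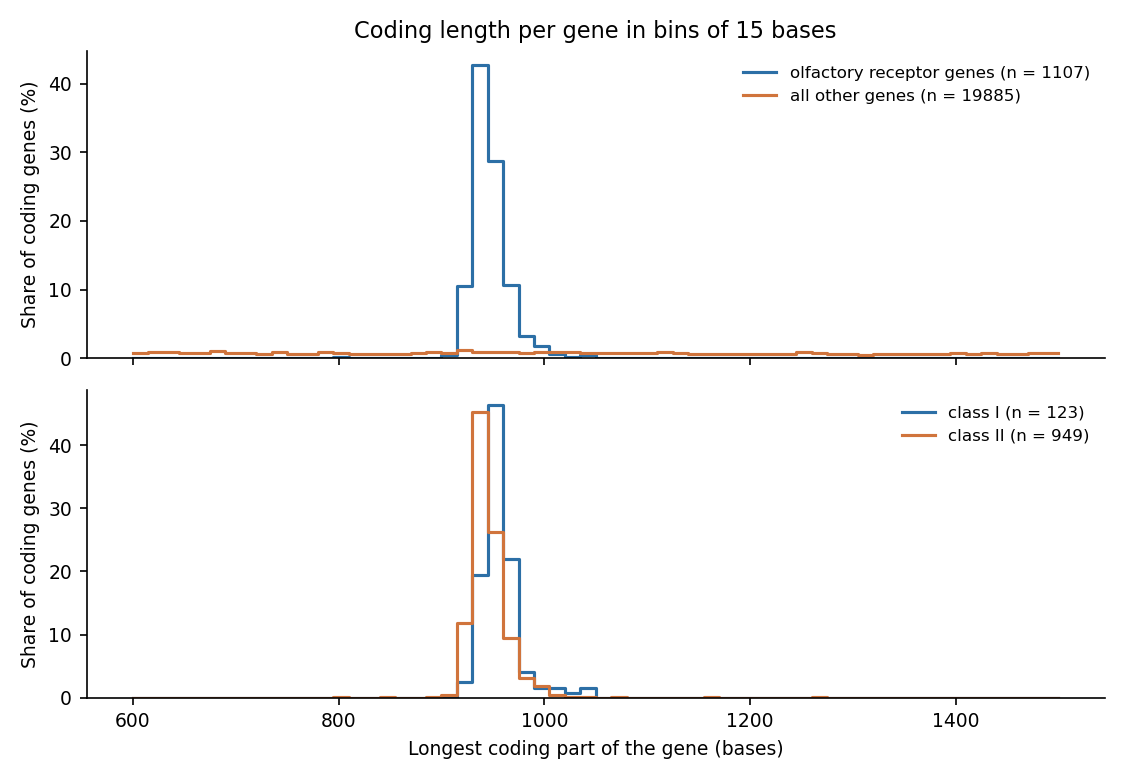
Share of coding genes (y axis, percent) by longest coding part (x axis, bases, in bins of 15), for receptors and all other genes (top) and for class I and class II receptors (bottom). The receptors form a narrow peak around their median of 942 bases, and the class I peak lies to the right of the class II peak.

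The coding part was almost always a single exon. It was uninterrupted in every coding row of 1096 of the 1107 genes (99.0%). The share was 228 of 228 in Vmn1r, 14 of 15 in Taar, 0 of 115 in Vmn2r and 10.6% in the 19885 other coding genes, which include those 3 families. An unbroken receptor reading frame is the textbook form of these genes.

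The 11 exceptions had a common shape. In 10 of them the first coding exon gave fewer than 60 bases and the second the rest. In Olfr1358 on chromosome 10 the first part was 3 bases, the length of a start codon, and the second 954. Olfr376 on chromosome 11 had a row of 963 bases whose first 9 lay in a separate exon and another row of 954 bases in 1 exon. The chromosome 15 neighbours Olfr288, Olfr287 and Olfr286 each had 5 bases in the first coding exon, with introns of 1343, 1626 and 1536 bases before the second. Among the rest, picked after their values were seen, Olfr18 (53 bases) and Olfr872 (29 bases) had introns of 21047 and 22628 bases, and Olfr872 was the third longest receptor model at 23752 bases. Olfr119 on chromosome 17 differed: 1 of its rows coded for 534 bases in exons of 332 and 202, while its longest coding part was 966 bases.

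Non-coding exons upstream of the coding exon were annotated for 110 of 1107 genes (9.94%). Of these 80 had 1 such exon, 22 had 2, 5 had 3 and 3 had 4. The share was 43.1% among the other coding genes, 4.39% in Vmn1r, 0.87% in Vmn2r and 0 of 15 in Taar. Where such exons were present, the coding part began a median of 3227 bases after the start of the row, with quartiles of 2144 and 5237 and a range of 594 to 20677 bases, the largest in Olfr1033 on chromosome 2. The receptors with 4 upstream exons were Olfr112 on chromosome 17 (6213 bases), Olfr32 on chromosome 2 (4114 bases) and Olfr701 on chromosome 7 (6581 bases), with 5' UTRs of 601, 283 and 453 bases. Olfr2, known as an octanal receptor, had 1 upstream exon and a 5' UTR of 266 bases, and Olfr1507, whose distant enhancer is a classic of the field, had 1 and a 5' UTR of 577 bases in an interval of 5761 bases on chromosome 14 (52489935 to 52495695).

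Upstream exons were spread unevenly over the clusters. Among the 22 clusters of at least 10 genes their share of coding genes ran from 0.0% to 40.0%. The cluster of 58 genes on chromosome 10 had 0 genes with an upstream exon, and 98.3% of its coding genes had no 5' UTR at all. The cluster of 10 genes on the same chromosome (Olfr1358 to Olfr57) had 4. The chromosome 2, 7 and 9 clusters gave 22 of 222, 9 of 125 and 11 of 95. These shares count what was annotated, and transcript evidence behind each model was not analysed here.

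For most receptors the row was the coding part and nothing else. Neither a 5' UTR nor a 3' UTR was annotated for 802 genes (72.45%), against 2.50% of other coding genes. Vmn1r genes gave 86.4%, Vmn2r 85.2% and Taar 93.3%. A 5' UTR was present in 294 genes, with a median of 70 bases, and a 3' UTR in 219, with a median of 67 bases. The longest, in genes picked for that, were a 5' UTR of 1419 bases in Olfr613 (chromosome 7) and a 3' UTR of 2803 bases in Olfr1443 (chromosome 19). The median receptor span was 948 bases and 119 spans exceeded 2 kb. The 3 longest were those of Olfr1300-ps1 (25883 bases), Olfr1033 (24169 bases) and Olfr872.

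**Figure D5:**
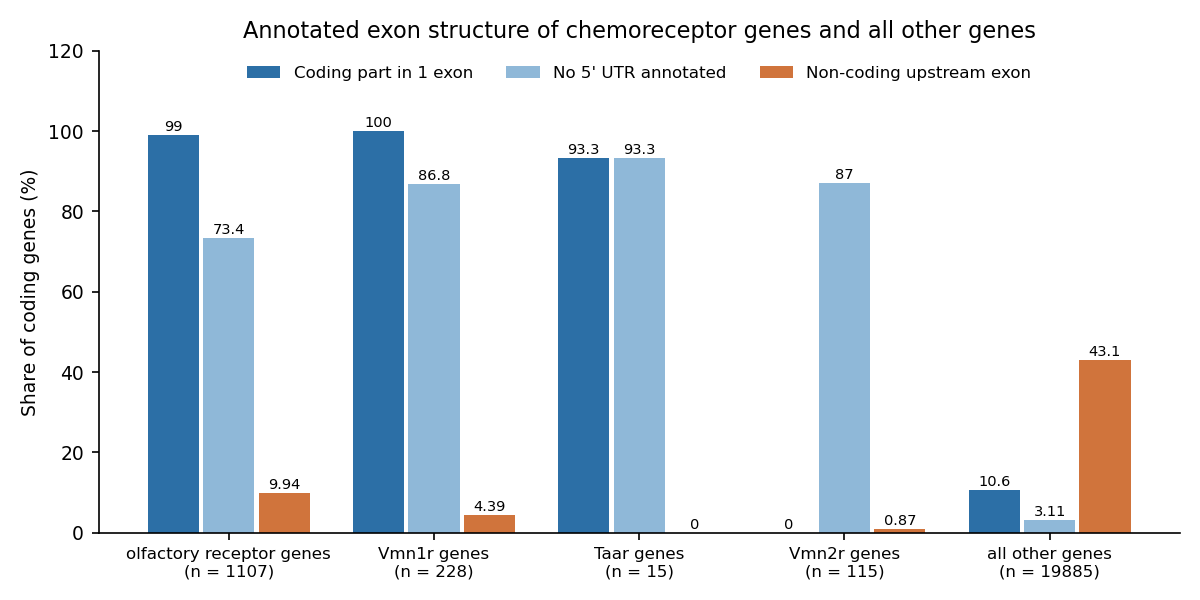
Share of coding genes (y axis, percent) with a coding part in 1 exon, with no annotated 5' UTR and with a non-coding upstream exon, for olfactory receptors, 3 other chemoreceptor families and all other genes (x axis). The receptors stand at 99.0%, 73.4% and 9.94%, and the other genes at 10.6%, 3.11% and 43.1%.

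The 18 members without a coding part were 17 transcribed pseudogenes and 1 gene of miscellaneous RNA class in the reference table. The names of 11 carry the pseudogene mark (-ps), and the names of 7 do not: Olfr192, Olfr197, Olfr1010, Olfr844, Olfr151, Olfr908 and Olfr915. Olfr151 is well known from gene-targeted mice as an acetophenone receptor. Here its row on chromosome 9 (37729977 to 37731061, 1085 bases, 1 exon) had no coding part, while Olfr160, its close relative of the same family 171 and the first gene of the same cluster, had a coding part of 930 bases. In the other direction, Olfr367-ps, Olfr1532-ps1 and Olfr911-ps1 bear the mark and have a coding part.

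Of the 1125 members, 6 (0.533%) shared a base with a gene of another name. Olfr78 and Olfr560 shared bases with each other, and the other 4 with long non-coding RNA genes. Olfr437 and Olfr13 on chromosome 6 lay on the strand opposite to 1700024N05Rik, and Olfr742 and Olfr275 lay inside same-strand non-coding genes on chromosomes 14 and 4. The number sharing with a coding gene other than a receptor was 0. Of 19885 other coding loci, 4023 (20.2%) shared a base with another gene.

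Genes of other kinds lay inside the clusters, mostly gathered in a few intervals. The 40 clusters enclosed 228 loci of other names, 201 of them coding, 17 long non-coding RNA genes, 5 transcribed pseudogenes, 3 miRNA genes, 1 snoRNA gene and 1 RNase P RNA gene. A gene of another name reached into 60 of the 1076 intervals between neighbouring receptors, counting genes that extend beyond a cluster's edge. In those intervals the receptors were a median of 73080 bases apart, against 18437 bases in the other 1016. No other locus was enclosed by 18 of the 40 clusters. The 3 clusters with most such genes, on chromosomes 14, 11 and 7, held 101 of the 201 coding ones.

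The largest cluster was almost free of them. In 5.07 Mb it enclosed 3 other coding genes, Fads2b, a fatty acid desaturase gene, and Pramel7 and Pramel6, PRAME family genes known from early embryos and embryonic stem cells. The chromosome 9 cluster also enclosed 3, Vwa5a, AW551984 and Tmem225. In contrast, the chromosome 7 class I cluster enclosed 26 coding genes.

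Among these were all 5 beta-globin genes of the annotation, Hbb-bt, Hbb-bs, Hbb-bh2, Hbb-bh1 and Hbb-y, which encode the beta chains of adult and embryonic haemoglobin. They formed a block of 40.7 kb without a receptor inside, all on the minus strand, between Olfr67 and Olfr66, which are also on the minus strand. Olfr67 ended 20693 bases from the block and Olfr66 began 28098 bases after it. The same cluster held 12 Trim genes, encoding ubiquitin ligases known for antiviral roles, among them Trim21, Trim68, Trim5 and Trim30a, all 5 Usp17l deubiquitinase genes of the annotation, and Ubqln5. With Trim58, Trim17 and Trim11 on chromosome 11 and Trim27 on chromosome 13, 16 of the 68 Trim genes lay inside receptor clusters. At the 1 Mb gap this was 23.5%, against 1.01% of all other coding loci. Trim17 and Trim11 lay in the interval of 728739 bases between Olfr311 and Olfr222, which falls outside at 500 kb. The genes from Trim6 to Trim30d lay in the interval of 362678 bases between Olfr649 and Olfr651. With clusters split at 200 kb, these genes and Trim27 also fall outside.

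Other families, named after their values were seen, were enclosed whole at the 1 Mb gap. All 11 interferon-inducible genes of the series from Ifi202b to Ifi214 lay in the chromosome 1 cluster, in the interval of 770795 bases between Olfr418 and Olfr433. All 10 numbered Rnase genes lay in the chromosome 14 cluster. They stood in the intervals between Olfr749 and Olfr750 (325986 bases) and between Olfr750 and Olfr221 (963731 bases). With clusters split at 500 kb, the intervals of 770795 and 963731 bases fall outside, and neither family is enclosed whole. The chromosome 14 cluster also held Mettl3, the RNA methyltransferase for m6A, Chd8, a chromatin remodeller, and Rpph1, the RNA of RNase P. The MHC genes H2-M2 and H2-M3 lay in the chromosome 17 cluster, 2 of 12 coding H2-M genes. Zinc finger genes of the Zfp, Zkscan and Zscan names were scattered, 17 of 422 in 10 clusters. Of the chemoreceptor families, 2 of 116 coding Vmn2r genes (Vmn2r88 and Vmn2r89) and 5 of 35 coding Tas2r bitter taste receptor genes were inside. The Vmn2r genes stood in the same interval of 963731 bases between Olfr750 and Olfr221. The Tas2r genes stood in an interval of 687778 bases on chromosome 6, between Olfr459 and Olfr458. With clusters split at 500 kb, these Vmn2r and Tas2r genes fall outside. Vmn1r (229 coding genes), Taar (15), Ms4a (21) and Gucy2d (1) had 0 inside a cluster. For the structure shares above a digit had to follow the family name, which gave 228 Vmn1r and 115 Vmn2r genes. The share inside was 1.72% for Vmn2r and 1.01% over all other coding loci. The counts of 0 and the Vmn2r share are near that background.

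All 21 genes on the list of olfactory signalling, receptor trafficking and receptor choice had a row, and 0 lay inside a receptor cluster. Of all 19885 other coding loci 1.01% did, so a count of 0 among 21 is near that background. Gnal, the olfactory G protein subunit, was on chromosome 18 (67088298 to 67226792, 12 exons), and Adcy3, the adenylyl cyclase, on chromosome 12 (4133397 to 4213524, 22 exons), both on chromosomes without a receptor. The channel subunit gene Cnga4 on chromosome 7 (105404568 to 105408738) came closest, 35250 bases from the nearest receptor, whereas Cnga2 on chromosome X was 2584109 bases away. Rtp1 and Rtp2, which bring receptors to the cell surface, stood on chromosome 16 with 2 coding exons each, 3804031 and 4300446 bases from the nearest receptor. Lhx2 was 1006548 bases from the nearest receptor on chromosome 2, and Ebf1 4104680 bases on chromosome 11. Only Omp, the marker protein of mature sensory neurons, had a coding part in 1 exon, and the others had 2 to 32 coding exons.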

How the data were processed

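Pol I CUT&Tag libraries (4 in all, 2 control and 2 auxin) have no values in the table used here, a 12-column BED annotation of the whole series. FastQC, Bowtie2, deepTools and bedtools are named in the submitters' processing notes, as is the build, mm10, without versions or roles. The score column deposited by the authors was 0 in every row. The other deposited columns are positions and exon numbers. How the annotation was made is not given in the sources used here.

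The software was Python 3.11.15 with numpy 2.4.6 and pandas 2.3.3, and starts were converted to count from 1. Rows of 1 symbol, chromosome and strand that share a base formed a locus. A gene's coding length is that of its longest coding part. Classes, synonyms and MOR families came from a RefSeq table of GRCm38.p6, where 1125 of 1125 symbols matched. Families were kept where the synonyms gave 1 number. Promoter windows were searched on both strands. The routines were tested on simulated data with 583 genes, of which 0 came out with a wrong structure. Binomial intervals (scipy 1.17.1) served only to compare settings, and figures used matplotlib 3.10.9.

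The members and lists were chosen with earlier results of these data known. All comparisons are descriptions without a test, since coordinates have no replicates. Named genes are the ends of the 3 largest clusters, 10 well-known receptors, extremes of coding length, span and upstream exons, the first 5 with 2 coding exons, ends of the longest run, members sharing bases with a coding gene that is no receptor (0 were found), and the enclosed genes of the 3 largest clusters (up to 10 each) with Hbb, Trim and H2-M genes. Other genes outside the lists were named after their values were seen, also where the text does not say so. Protein motifs, planned, were not analysed here.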

Additional observations from a re-analysis of the deposited data

How the results depend on the processing

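No paired analysis was possible because the annotation carries no measurement of any single library, and no replicate could be left out for the same reason. The count of 228 other genes inside clusters depended on the gap: with clusters split at 200 kb it was 77, since the wide intervals that hold most of these genes then fall outside. It was 229 with a touch of 1 base and 201 for coding genes. The share of windows with the palindrome core, 3.06%, became 0.528% with outer letters required and 7.605% in windows of members with a 5' UTR, a setting added after seeing the data. The other settings moved no count by more than 1.5 times and no share beyond its 95% Wilson interval. The 40 clusters became 44, 36 and 48 with gaps of 500 kb, 2 Mb and 200 kb, and the largest kept 226 genes in each. With the 300 pseudogenes of the reference table added, also chosen after seeing the data, there were 43 clusters and the largest held 293 genes. Coding length had a median of 942 bases in all 3 settings. MOR numbers, UTRs and upstream exons reflect what was annotated, so an absent UTR does not show that the transcript lacks one.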

Other observations

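The reference table lists 300 olfactory receptor genes of the class pseudogene, beside the 17 transcribed pseudogenes among the members. Of the 300, 0 had a row in the table analysed, while 2 of its 1110 coding receptor genes (Olfr687 and Olfr1458, without a curated transcript) had none. Of the 300 pseudogenes, 271 (90.3%) touched or lay inside the 40 clusters. Chromosome 2 had 85, chromosome 7 had 54 and chromosome 9 had 43, the same 3 chromosomes that lead in genes. Chromosomes 5 and 12, which had no member, had 3 each.

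Symbols followed position. Of the 1076 neighbouring pairs, 727 (67.6%) had Olfr numbers that differ by 1, and 907 (84.3%) numbers that differ by at most 5.

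On contigs other than the assembled chromosomes, 187 rows held 107 receptor genes, of which 47 genes belong to chromosome 17 and 45 to chromosome 11. Olfr100, with a coding part of 927 bases, was found only there. Of 104 genes coding in both places, 102 had the same longest coding length. The others were Olfr132 (942 bases on the chromosome and 939 on the alternate contig) and Olfr432 (939 and 809 bases).

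In windows of other genes matches to TATAAA were most frequent between 20 and 30 bases before the annotated start, at 1.53 starts per 100 windows. In receptor windows that begin at the start codon the highest bin was 60 to 70 bases before it, at 5.56 per 100 windows. The 263 receptor windows with an annotated 5' UTR are anchored on the start of the annotated row, which need not be the site where transcription starts. In these windows the highest bin was 230 to 240 bases before the start, at 3.04 per 100 windows. The bin 60 to 70 bases before it was close, at 2.66, and the bin 20 to 30 bases before it stood at 0.76. Several other bins stood at 2.28. With 263 windows each bin rests on few matches, so the order of these bins carries little weight. Whether transcription starts near these matches was not tested.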
